A study of Mus musculus with 2 samples.

Results

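The genes described here are the stromal CXC chemokines Cxcl12, Cxcl13 and Cxcl14 and the chemokine receptors Cxcr4 and Ackr3, 5 of the 31053 gene rows in the files. They were chosen by their UMI ratios between host genotypes in earlier results of these data, together with their receptors, so the differences in fibroblasts are given as a description. Single-cell RNA was measured in small tumours that the mouse melanoma cell line B16F10 formed under the skin of hosts of 2 genotypes. Mice carrying Rosa26::CreERT2, a tamoxifen-inducible Cre active in all tissues, were either Atf4 WT/WT (WT) or Atf4 fl/fl, and tamoxifen turned the latter into Atf4 Δ/Δ hosts (KO). WT hosts carried the same Cre and received tamoxifen too. Each library pooled 2 tumours of hosts aged 11 weeks, which the labels give as male and female although the WT library held no Y-linked UMI in the 4 classes examined. There was 1 library per genotype, and the injected melanoma cells keep their own Atf4. ATF4 is a transcription factor of the integrated stress response, and the comparison asks how stromal RNA differs when the host lacks it.

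CXCL12 is a constitutively made chemokine of fibroblasts, perivascular stroma and endothelium that holds and attracts leukocytes and progenitors through CXCR4. ACKR3 is an atypical receptor that binds CXCL12 and removes it without classical G protein signalling. CXCL13 is the B cell attractant of lymphoid follicles and acts through CXCR5, and CXCL14 is a chemokine of skin and fibroblasts whose receptor is less clearly defined.

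Since each genotype had a single library, the genotypes could not be tested against each other, and every interval in brackets is a 95% interval for counting error only, not for the spread between mice. Intervals for sums, ratios and shares of UMIs also treat UMIs as independent, which those of 1 cell are not. They are therefore too narrow where a few cells hold much of a sum. The WT library kept 3861 cells at a median of 3920 UMIs (unique molecular identifiers, each counting 1 captured RNA molecule), and the KO library kept 3557 cells at 6279. Cells were classed by gates on marker genes that used none of the 5 genes. The fibroblast-like class, led by Col3a1, Col1a1 and Dcn, held 190 WT and 230 KO cells at median depths of 3730 and 3705 UMIs. Levels are given as CPM, the UMIs of a gene in a class divided by all UMIs of the class and multiplied by 1000000. Of the kept cell barcodes 1 occurred in both libraries, and it was not a fibroblast. Atf4 was at 256 CPM in WT fibroblasts and 46.6 CPM in KO fibroblasts, a log2 KO/WT ratio of -2.46 (-2.97 to -1.98), against 227 and 202 CPM in the melanoma cells. The melanoma panel of 9 genes was also read in fibroblasts, at 599 (WT) and 685 (KO) CPM with all 9 genes detected, and its part in the results was not tested.

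One feature of the libraries touches every result below. WT fibroblasts held 445 UMIs of Xist, the RNA of the inactive X chromosome, and 0 UMIs of the Y-linked genes Ddx3y, Eif2s3y, Kdm5d and Uty, while KO fibroblasts held 180 Xist and 74 Y-linked UMIs. WT endothelial cells, macrophages and melanoma cells also held 0 Y-linked UMIs. The KO library therefore could be split into 60 fibroblasts with Xist and no Y-linked UMI, 51 with Y-linked and no Xist UMI, and 119 with neither. In a pool of 2 tumours, the sex of the cells and the mouse they came from cannot be told apart.

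The 3 chemokine genes lie on different chromosomes. Cxcl12 (ENSMUSG00000061353) spans chr6:117168535-117181367 on the plus strand of GRCm38, Cxcl13 (ENSMUSG00000023078) spans chr5:95956951-95961068 on the plus strand, and Cxcl14 (ENSMUSG00000021508) spans chr13:56288643-56296551 on the minus strand. Ackr3 (ENSMUSG00000044337) spans chr1:90203980-90216751 on the plus strand and Cxcr4 (ENSMUSG00000045382) spans chr1:128588199-128592293 on the minus strand. All 5 are protein coding. To show how the 3 chemokine genes differ in sequence ahead of their start sites, the 250 bases before each one are given (RefSeq, GRCm38.p6), at chr6:117168285-117168534, chr5:95956689-95956938 and chr13:56296552-56296801. Capitals mark matches on either strand to a TATA box (TATAAA) or a GC box (GGGCGG).
Cxcl12: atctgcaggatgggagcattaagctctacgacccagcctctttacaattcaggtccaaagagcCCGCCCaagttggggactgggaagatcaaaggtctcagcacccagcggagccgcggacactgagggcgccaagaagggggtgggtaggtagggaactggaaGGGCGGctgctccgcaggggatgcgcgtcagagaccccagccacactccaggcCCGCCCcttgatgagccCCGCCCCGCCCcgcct
Cxcl13: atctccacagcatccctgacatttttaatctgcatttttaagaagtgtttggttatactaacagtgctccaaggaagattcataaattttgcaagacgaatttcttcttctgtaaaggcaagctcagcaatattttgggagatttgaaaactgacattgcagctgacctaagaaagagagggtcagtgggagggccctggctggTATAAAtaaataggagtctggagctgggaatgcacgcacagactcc
Cxcl14: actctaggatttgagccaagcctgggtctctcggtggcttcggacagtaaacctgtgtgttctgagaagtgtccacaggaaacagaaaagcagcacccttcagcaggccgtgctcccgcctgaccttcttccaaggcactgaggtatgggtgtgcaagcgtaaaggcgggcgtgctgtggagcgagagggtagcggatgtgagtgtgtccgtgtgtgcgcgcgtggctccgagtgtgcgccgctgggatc
The Cxcl12 window held 5 GC boxes, of which the 2 nearest the start share a base, and no TATA box. Cxcl13 had a single TATA box, 46 bases before the RefSeq start, and no GC box, with a GC content of 42.0% against 64.4% for Cxcl12 and 59.6% for Cxcl14. The Cxcl14 window held neither motif. Of 32851 listed promoter windows of this length, 12.4% held TATAAA and 32.7% held GGGCGG. A C/EBP-ATF response element (TGATGNAA, held by 3.45% of windows), the full cyclic AMP response element (TGACGTCA, 1.55%) and an NF-kB motif (7.25%) had no match in the 3 windows, which says only that these letters are not there.

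The first question was which cells carried each RNA. Fibroblasts held 72.2% of all Cxcl12 UMIs of the WT library and 74.8% of those of the KO library, 84.6% and 57.0% of Cxcl13, 91.9% and 95.6% of Cxcl14, and 67.3% and 87.6% of Ackr3. Cxcr4 was the opposite, with 1.36% of its WT UMIs and 0.957% of its KO UMIs in fibroblasts and 46.5% and 50.2% in macrophages. Melanoma cells, which were the deepest class at medians of 11395 and 10769 UMIs, had each of the 5 genes at 0.995 CPM or less in both libraries, so free RNA of these genes was at most at that level there.

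**Figure D1:**
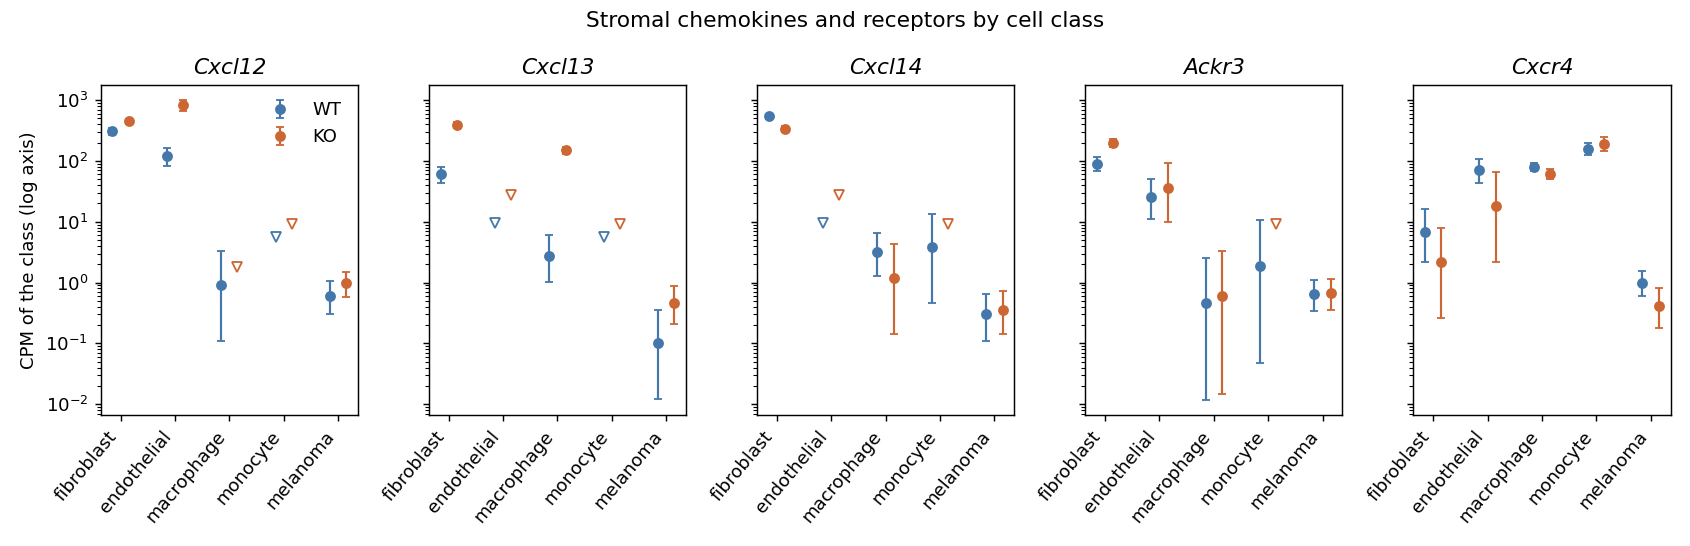
Level of each gene (CPM of the class, log axis) in fibroblasts, endothelial cells, macrophages, monocytes and melanoma cells of the WT (blue) and KO (orange) libraries. Points are sums over the cells of 1 library with 95% Poisson intervals, and open triangles mark the limit set by 3 UMIs where no UMI was found. Cxcl12 in KO endothelial cells (822 CPM) and Cxcl13 in KO macrophages (149 CPM) stand far above WT, at 118 and 2.76 CPM.

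Cxcl12 was measured in WT fibroblasts at 311 CPM (272 to 354, 228 UMIs) and in KO fibroblasts at 450 CPM (407 to 495, 415 UMIs). The log2 KO/WT ratio was 0.53 (0.30 to 0.77), and 1087 of 7295 genes with at least 20 UMIs had a higher one. Cells with a Cxcl12 UMI made up 43.2% of WT fibroblasts (36.0 to 50.5) and 50.4% of KO fibroblasts (43.8 to 57.1), against 0.502% and 1.04% of the deeper melanoma cells. After thinning each cell to 2000 UMIs, the fibroblast shares were 29.4% (22.4 to 37.1, 160 cells) and 40.0% (33.0 to 47.3, 190 cells), and the intervals overlapped. No single cell carried the sum, since the top cell held 7.89% of the WT UMIs and 5.78% of the KO UMIs.

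Cxcl13 was the gene with the largest difference of the 5 in fibroblasts. The WT level was 60 CPM (43.6 to 80.5, 44 UMIs) and the KO level 389 CPM (350 to 431, 359 UMIs), a log2 ratio of 2.70 (2.24 to 3.18). Only 15 of the 7295 genes had a higher ratio. The RNA sat in a minority of cells, 8.42% of WT fibroblasts (4.89 to 13.3) and 17.8% of KO fibroblasts (13.1 to 23.4), and at 2000 UMIs per cell in 6.25% (3.04 to 11.2) and 16.8% (11.8 to 22.9). Melanoma cells with a UMI were 0.0558% and 0.494%. The positive cells also carried more of it: the median positive fibroblast had 1.5 UMIs in WT and 5 in KO, the highest had 10 in WT and 52 in KO, and the 5 highest KO cells held 45.1% of the sum.

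Cxcl14 lay the other way in the whole class. WT fibroblasts had 543 CPM (491 to 599, 398 UMIs) and KO fibroblasts 330 CPM (294 to 370, 305 UMIs), a log2 ratio of -0.72 (-0.94 to -0.50). The share of cells with a UMI was 37.9% in WT (31.0 to 45.2) and 14.3% in KO (10.1 to 19.6), or 32.5% (25.3 to 40.3) and 12.1% (7.84 to 17.6) after thinning, intervals that do not overlap. Melanoma cells had shares of 0.335% and 0.384%. Fewer KO cells were positive, but those that were had more, with a median of 4 UMIs against 2, and the 5 highest cells held 55.4% of the KO sum and 37.4% of the WT sum. Within KO the direction depended on the sex set of the cells, as described below.

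**Figure D2:**
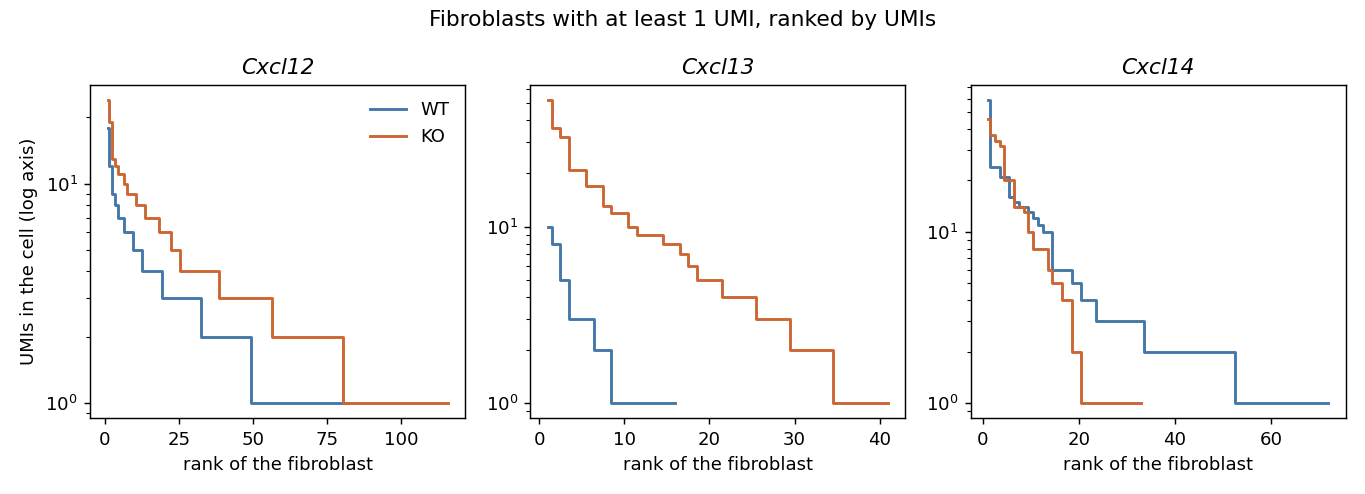
Fibroblasts with at least 1 UMI of Cxcl12, Cxcl13 or Cxcl14, ranked by their UMIs (horizontal axis, rank; vertical axis, UMIs in the cell, log axis), in WT (blue) and KO (orange). KO has more Cxcl13-positive cells, 41 against 16, with up to 52 UMIs against 10, and fewer Cxcl14-positive cells, 33 against 72.

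Ackr3, the scavenging receptor for CXCL12, was at 90.0 CPM in WT fibroblasts (69.6 to 115, 66 UMIs) and 199 CPM in KO fibroblasts (172 to 230, 184 UMIs), a log2 ratio of 1.15 (0.73 to 1.58). A UMI was seen in 35 of 190 WT cells (18.4%, 13.2 to 24.7) and in 37.8% of KO cells (31.5 to 44.4), against 0.725% and 0.713% of melanoma cells, and in 11.2% (6.81 to 17.2) and 28.4% (22.1 to 35.4) of fibroblasts after thinning. Cxcr4, the signalling receptor, was nearly absent from fibroblasts, with 5 UMIs in WT and 2 in KO. Over all 7295 genes tested in fibroblasts, 5.1% were at least 2-fold higher in KO and 5.94% at least 2-fold lower, with a median log2 ratio of -0.03. By that measure 2 of the 4 genes detected at 20 UMIs, Cxcl13 and Ackr3, were past 2-fold and higher, and none was past 2-fold and lower. These genes were chosen on this contrast, so nothing is read from that count.

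**Figure D3:**
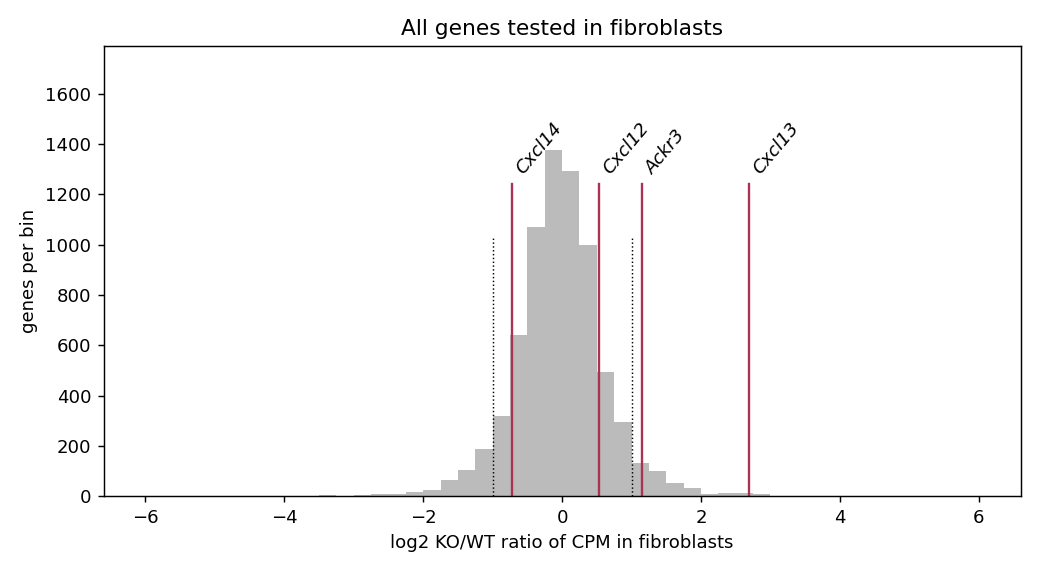
Distribution of the log2 KO/WT ratio of CPM over the 7295 genes tested in fibroblasts (grey bars, genes per bin) with the ratios of Cxcl14 (-0.72), Cxcl12 (0.53), Ackr3 (1.15) and Cxcl13 (2.70) as lines. Dotted lines mark 2-fold in either direction; Cxcl13 lies in the sparse upper tail.

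Fibroblasts were divided into subtypes by 5 panels of marker genes. The adventitial subtype, led by Pi16 and Clec3b, which mark fibroblasts of the outer vessel wall and fascia, held 34 WT and 57 KO cells. The activated subtype, led by Mmp13, Tnc and Lrrc15 with globin genes beside them, held 46 and 24, the cycling subtype 47 and 41, the hypoxic subtype 22 and 55, and cells that no panel claimed, led by Gas6, Apod and Igf1, were 34 and 34. The vascular subtype, led by Rgs5, had only 7 WT cells and is not compared.

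Cxcl13 belonged to the adventitial subtype in WT, which supplied 93.2% of fibroblast Cxcl13 UMIs (81.3 to 98.6), and to a lesser extent in KO, at 70.5% (65.5 to 75.1). In adventitial fibroblasts the WT level was 450 CPM (323 to 610) and the KO level 1327 CPM (1168 to 1500), a log2 ratio of 1.56 (1.08 to 2.07), while the share of positive adventitial cells was 38.2% (22.2 to 56.4) and 49.1% (35.6 to 62.7). The unclaimed cells went from 1 UMI (10.2 CPM) to 76 UMIs in 6 cells (720 CPM, or 388 CPM without the top cell), a log2 ratio of 6.14 (3.62 to 11.46). All 76 UMIs lay in the 16 unclaimed KO cells with Xist. The 4 unclaimed KO cells with Y-linked UMIs and the 14 with neither held 0. In hypoxic KO cells, at 58.5 CPM, a single cell held 92.3% of the UMIs. Activated fibroblasts had 0 Cxcl13 UMIs in either library, which allows up to 17.1 CPM in WT and 32.7 CPM in KO at 3 UMIs.

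Ackr3 shared the adventitial subtype but not its genotype difference. Adventitial fibroblasts had 460 CPM (332 to 622) in the WT library and 409 CPM (323 to 510) in the KO library, a log2 ratio of -0.17 (-0.73 to 0.41). Cycling fibroblasts had 47.5 CPM (24.6 to 83.0) and 189 CPM (137 to 254), a log2 ratio of 1.99 (1.04 to 3.05). In hypoxic fibroblasts the levels were 57.4 and 139 CPM, a ratio whose interval spans 0 (1.28, -0.09 to 3.0). In activated fibroblasts 0 WT UMIs stood beside 6 KO UMIs.

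Cxcl12 was the most widely spread of the 3 chemokines. The order of its values among subtypes was not the same in the libraries, although adventitial and unclaimed cells overlapped in both. In WT Cxcl12 was highest in adventitial cells at 811 CPM (637 to 1019), then unclaimed cells at 490 (361 to 649), whose intervals overlapped slightly. Cycling cells followed at 230 (175 to 297), activated cells at 183 (125 to 258) and hypoxic cells at 161 (87.8 to 270), and the intervals of these last 3 overlapped. In KO the unclaimed cells had 786 CPM (626 to 975), adventitial cells 608 (503 to 729), hypoxic cells 472 (386 to 572), cycling cells 290 (224 to 369) and activated cells 174 (99.7 to 283), each overlapping its neighbour except hypoxic and cycling cells. More adventitial than unclaimed KO cells had a Cxcl12 UMI, 71.9% (58.5 to 83.0) against 58.8% (40.7 to 75.4), so their order is not settled. The unclaimed KO level was 1116 CPM in 16 cells with Xist, 586 CPM in 14 with neither and 236 CPM in 4 with Y-linked UMIs. The hypoxic subtype had the largest difference, with a log2 ratio of 1.56 (0.75 to 2.48), and adventitial cells had -0.42 (-0.85 to 0.02). Hypoxic cells supplied 6.14% of fibroblast Cxcl12 UMIs in WT (3.40 to 10.1) and 25.3% in KO (21.2 to 29.8). They were also 22 of the 190 WT fibroblasts and 55 of the 230 KO fibroblasts. The 5 highest hypoxic cells held 92.9% of the 14 WT UMIs and 60.0% of the KO UMIs. After thinning, 15.8% (3.38 to 39.6) and 30.6% (18.3 to 45.4) of hypoxic cells were positive, with intervals that overlap.

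The WT level of Cxcl14 summed over activated fibroblasts was 861 CPM (729 to 1010), followed by cycling cells at 571 (481 to 672), unclaimed cells at 510 (378 to 672) and adventitial cells at 450 (323 to 610), whose intervals overlapped, and hypoxic cells at 115 (55.0 to 211). In KO it was lower in adventitial cells, at 94.4 CPM (55.9 to 149), in hypoxic cells, at 18.0 CPM (4.91 to 46.1), in activated cells, at 600 CPM (452 to 781), and in cycling cells, at 413 CPM (334 to 505). Unclaimed cells went the other way in their sum, to 1203 CPM (1003 to 1432), a log2 ratio of 1.24 (0.76 to 1.74). Their share of positive cells did not rise, at 35.3% in WT (19.7 to 53.5) and 23.5% in KO (10.7 to 41.2). The 5 highest unclaimed KO cells held 95.3% of the UMIs, and without the top cell the level was 802 CPM. Several of these sums lean on 1 cell: the top cell held 58.5% of the WT adventitial UMIs and 61.8% of the KO activated UMIs, without which those values were 195 and 241 CPM. In WT activated fibroblasts 1 cell held 59 of the 151 UMIs, and the other cells stood at 538 CPM, beside 571 CPM in all cycling cells and 487 CPM in cycling cells without their own top cell. More of the cycling than of the activated WT cells had a Cxcl14 UMI, 51.1% (36.1 to 65.9) and 39.1% (25.1 to 54.6), with intervals that overlap, so the order of these subtypes is not settled.

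**Figure D4:**
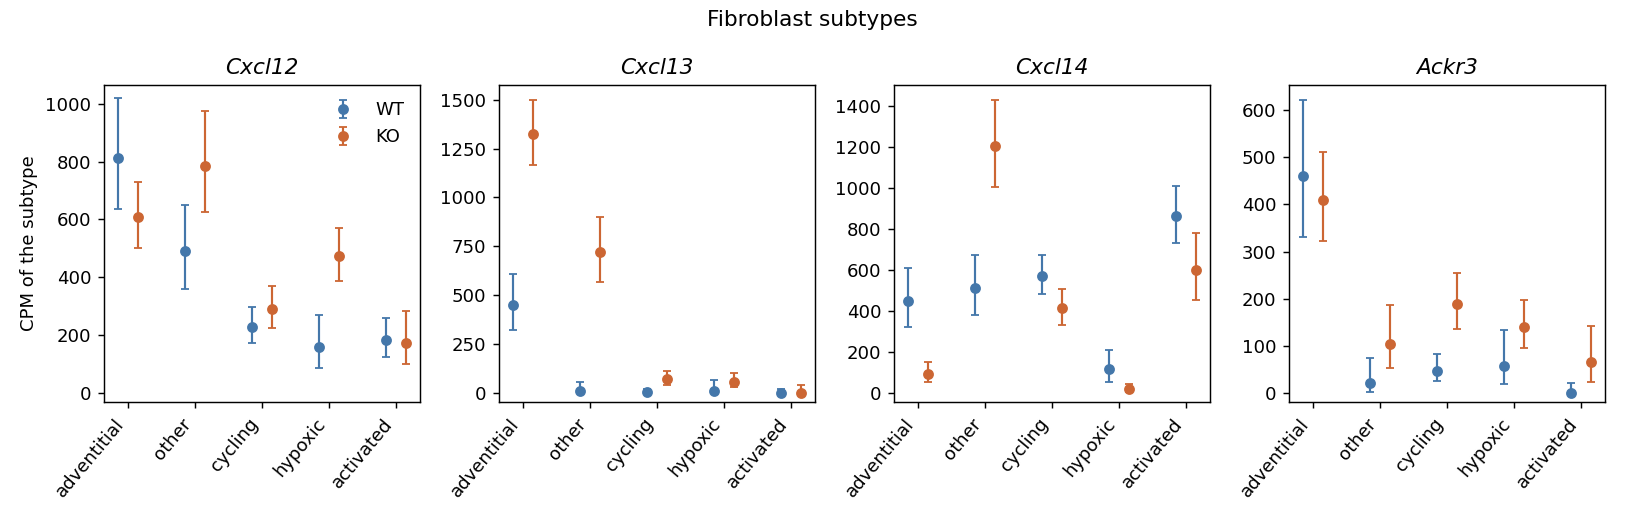
Level of Cxcl12, Cxcl13, Cxcl14 and Ackr3 (CPM of the subtype, linear axes) in 5 fibroblast subtypes of the WT (blue) and KO (orange) libraries, with 95% Poisson intervals. Cxcl13 and Ackr3 peak in adventitial cells, Cxcl13 at 450 CPM in WT and 1327 in KO, and the WT activated bar of Cxcl14, at 861 CPM, is 538 CPM without its top cell.

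At the level of single cells, Cxcl13 was found more often with Ackr3 than with Cxcl14. Of 16 WT fibroblasts with a Cxcl13 UMI, 12 also had Ackr3 (75.0%, 47.6 to 92.7), beside 35 of the 190 cells among all WT fibroblasts, and of 41 such KO cells 25 did (61.0%, 44.5 to 75.8), against 37.8%. Cxcl12 was seen in 9 of the 16 WT cells and in 32 of the 41 KO cells (78.0%, 62.4 to 89.4), against 50.4% of all KO fibroblasts. Cxcl13 and Cxcl14 occurred together in 2 WT and 6 KO cells. In KO these were 14.6% of the cells with Cxcl13 (5.57 to 29.2), beside 14.3% of all KO fibroblasts with Cxcl14. In WT they were 2 of the 16 cells, with an interval of 1.55% to 38.3% that holds the 37.9% of all WT fibroblasts. A tendency of Cxcl13 and Cxcl14 to occur apart was thus not seen in KO and is not settled in WT. Of 72 WT cells with Cxcl14, 2 had Cxcl13 (2.78%, 0.338 to 9.68), an interval that holds the 8.42% of all WT fibroblasts. Deeper cells show any pair more often, and neither depth nor subtype was removed from these shares. Of the Cxcl13-positive cells, 13 in WT and 28 in KO were adventitial. Among all adventitial cells, 58.8% in WT and 61.4% in KO had an Ackr3 UMI, so a link beyond the shared subtype was not tested.

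The difference between sex sets within KO was larger in value than that between genotypes for Cxcl13, Cxcl14 and, to a lesser extent, Cxcl12. Cxcl13 was at 68.8 CPM in WT fibroblasts with Xist (49.8 to 92.7, 43 UMIs), at 1029 CPM in KO fibroblasts with Xist (893 to 1179, 207 UMIs) and at 10.6 CPM in KO fibroblasts with Y-linked UMIs (2.18 to 30.9, 3 UMIs in 1 cell). KO cells with neither lay between, at 341 CPM (288 to 400). The log2 ratio against WT cells with Xist was thus 3.90 (3.42 to 4.41) for the KO Xist set and -2.70 (-5.04 to -1.06) for the KO Y-linked set. Within KO the Xist set exceeded the Y-linked set by a log2 ratio of 6.61 (5.04 to 8.90), and 0 of 3460 genes tested had a higher one, where 4.86% were at least 2-fold higher.

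Cxcl14 followed the same order. It was at 549 CPM in WT cells with Xist (492 to 610), 994 CPM in KO cells with Xist (861 to 1142), 219 CPM in KO cells with neither (178 to 268) and 31.7 CPM in KO cells with Y-linked UMIs (14.5 to 60.1, 9 UMIs). Against WT cells with Xist the log2 ratio was 0.86 (0.60 to 1.11) in the KO Xist set and -4.12 (-5.26 to -3.17) in the KO Y-linked set. The lower summed level of Cxcl14 in the whole KO class was therefore not seen in the sum of its Xist set. The share of positive cells there was lower in value, at 25.0% (14.7 to 37.9) against 39.6% in WT cells with Xist (31.8 to 47.8). After thinning it was 24.5% (13.3 to 38.9) against 33.3% (25.5 to 42.0), and both pairs of intervals overlap. Unclaimed KO cells of the set held 126 UMIs in 7 cells, at 2468 CPM against 478 in WT. Activated and cycling cells (8 and 4 in KO) were also higher in KO, at 1237 against 1120 and 930 against 461 CPM. Adventitial and hypoxic cells were lower in KO, at 206 against 461 and 24.5 against 99.6 CPM. The sum in the KO Xist set rests on 15 cells, of which the top 5 held 75.5%.

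Cxcl12 differed less between the sets, with 306 CPM in WT cells with Xist (264 to 352), 651 CPM in KO cells with Xist (544 to 773) and 303 CPM in KO cells with Y-linked UMIs (242 to 374). The log2 ratio was 1.09 (0.76 to 1.42) for the Xist set and -0.01 (-0.40 to 0.36) for the Y-linked set. Between the KO sets the log2 Xist-over-Y ratio was 1.11, exceeded by 124 of 3460 genes tested, where 4.86% were at least 2-fold higher. Ackr3 had KO values above WT in both sets, at 97.6 CPM in WT cells with Xist (74.7 to 125), 144 CPM in KO cells with Xist (96.5 to 207) and 225 CPM in KO cells with Y-linked UMIs (174 to 288). Its ratio was 0.56 (-0.13 to 1.22) in the Xist set, with an interval that spans 0, and 1.21 (0.68 to 1.74) in the Y-linked set. Among 5120 genes tested in fibroblasts with Xist, 5.08% were at least 2-fold higher in KO, and Cxcl12 and Cxcl13 were among them. Atf4 was low in both KO sets, at 19.9 CPM with Xist and 38.7 CPM with Y-linked UMIs, against 256 CPM in WT cells with Xist.

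The subtypes were not evenly spread over the sets, which held 18 (Xist) and 12 (Y-linked) adventitial KO cells and 16 and 4 unclaimed KO cells. Within the adventitial subtype alone Cxcl13 was at 498 CPM in WT cells with Xist (40 UMIs), 2682 CPM in KO cells with Xist (117 UMIs, of which 1 cell held 52, or 1590 CPM without it) and 39.3 CPM in KO cells with Y-linked UMIs (3 UMIs). Ackr3 within the same cells was at 486, 458 and 406 CPM (39, 20 and 31 UMIs). Within the adventitial subtype the KO sets thus lay far apart in Cxcl13 and close together in Ackr3.

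**Figure D5:**
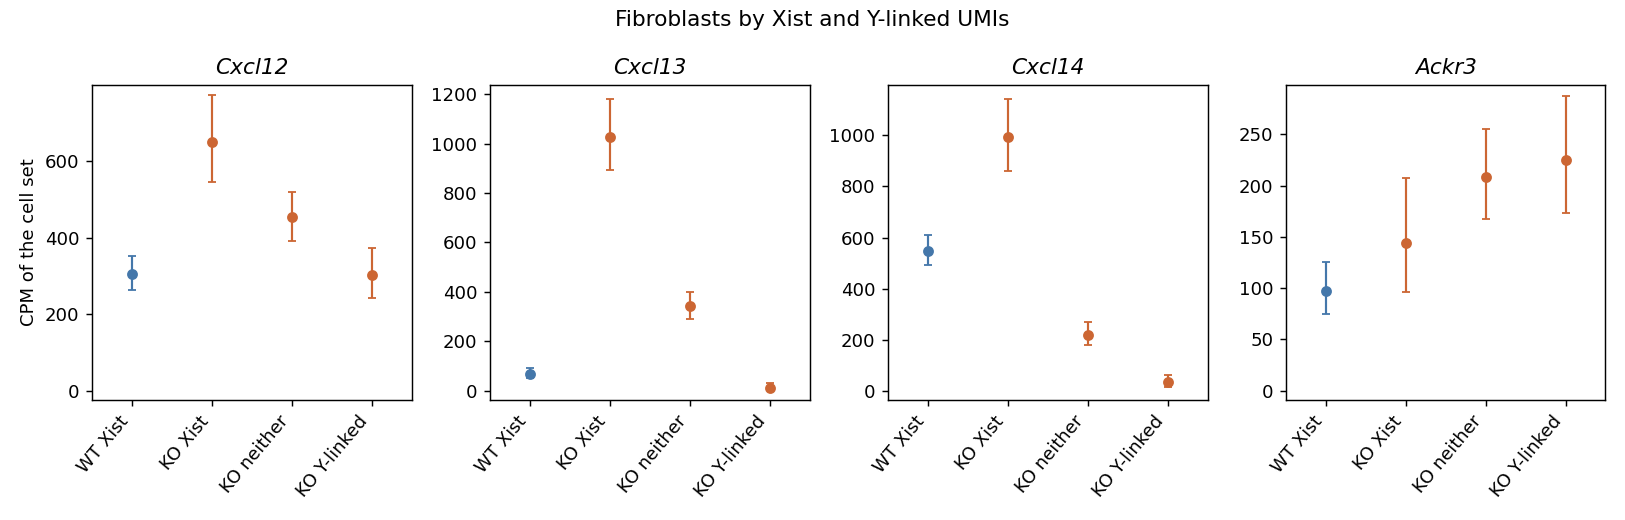
Level of Cxcl12, Cxcl13, Cxcl14 and Ackr3 (CPM of the cell set, linear axes) in WT fibroblasts with Xist (blue) and in KO fibroblasts with Xist, with neither, or with Y-linked UMIs (orange), with 95% Poisson intervals. Cxcl13 falls from 1029 to 341 and 10.6 CPM over the 3 KO sets and Cxcl14 from 994 to 219 and 31.7 CPM, while Ackr3 is lowest in WT at 97.6 CPM.

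Outside fibroblasts, Cxcl12 was found in endothelial-like cells, gated on genes such as Pecam1 and Cdh5, with 72 cells in WT and 27 in KO. Its WT level was 118 CPM (83.4 to 163, 37 UMIs) and its KO level 822 CPM (662 to 1009, 91 UMIs), a log2 ratio of 2.79 (2.23 to 3.39). The share of cells with a UMI was 19.4% in WT (11.1 to 30.5) and 51.9% in KO (31.9 to 71.3), or 17.3% (8.23 to 30.3, 52 cells) and 47.4% (24.4 to 71.1, 19 cells) after thinning, with intervals that overlap. Only 2 of 3234 genes tested had a higher ratio, and 5.44% were at least 2-fold higher. Both KO sex sets had it, at 1159 CPM in 10 cells with Xist and 1193 CPM in 7 cells with Y-linked UMIs. WT cells with Xist had 117 CPM. In cells with neither, the level was 257 CPM in KO (128 to 460, 10 cells, 11 UMIs) and 129 CPM in WT (42.0 to 302, 17 cells, 5 UMIs), with intervals that overlap. The 5 highest endothelial cells held 64.8% of the KO UMIs and 62.2% of the WT UMIs. The fibroblast panel of 12 genes stood at 596 CPM in WT endothelial cells and 840 CPM in KO endothelial cells, with 2 and 3 of its genes at 0, against 51305 and 36822 CPM in fibroblasts.

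The CXCL12 receptors in endothelial cells were sparse. Cxcr4, which marks sprouting tip cells, had 22 WT UMIs (70.5 CPM, 44.2 to 107) and 2 KO UMIs (18.1 CPM, 2.19 to 65.2), a log2 ratio of -1.96 (-5.10 to 0.06). A single WT cell carried 7 of those 22 Cxcr4 UMIs, and the 5 highest WT cells carried 68.2%. When only endothelial cells with Xist were compared, the Cxcr4 ratio was -0.18 (-3.33 to 1.86). That comparison rests on 20 WT UMIs and 2 KO UMIs, so a lower Cxcr4 level in KO endothelial cells is not settled. Ackr3 had 8 WT and 4 KO UMIs over all endothelial cells (25.6 and 36.1 CPM), which cannot be ordered at this depth. No Cxcl13 or Cxcl14 UMI was found in these cells.

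Macrophages, gated on genes such as C1qa, Adgre1 and Mrc1, had Cxcl13 in the KO library. In WT, 828 macrophages held 6 UMIs (2.76 CPM, 1.01 to 6.0), all in 1 cell, and in KO 676 macrophages held 252 UMIs in 28 cells (149 CPM, 131 to 168). The log2 ratio of 5.75 (4.61 to 7.21) was exceeded by 0 of 8824 genes tested, of which 2.89% were at least 2-fold higher. Macrophages supplied 40.0% of the Cxcl13 UMIs of the KO library (36.1 to 43.9). The top KO cell held 47 UMIs, and without it the level was 121 CPM.

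Of the 28 positive KO cells, 25 passed a limit on 6 tissue-resident macrophage genes (Lyve1, Cd163, Folr2, Timd4, Vsig4 and Cbr2), against 250 of the 648 KO macrophages without a Cxcl13 UMI. Resident macrophages numbered 192 in WT and 275 in KO, and within them Cxcl13 was at 10.3 CPM (3.77 to 22.3) and 283 CPM (249 to 321), a log2 ratio of 4.79 (3.64 to 6.25). In the positive KO cells the macrophage panel was at 18671 CPM and the fibroblast panel at 167 CPM (95.6 to 271, 16 UMIs), against 84.4 CPM (70.8 to 99.9) in the other KO macrophages, with median depths of 3428 and 2268 UMIs. The fibroblast panel of these cells was thus far below the 36822 CPM of KO fibroblasts. Unlike in fibroblasts, Cxcl13 in KO macrophages was higher in the Y-linked set, at 261 CPM (83 UMIs in 8 of 106 cells), than in the Xist set, at 19.3 CPM (4 UMIs in 2 of 71 cells), a log2 Xist-over-Y ratio of -3.76 (-5.67 to -2.35). Compared with WT macrophages with Xist, the KO Xist set had a log2 ratio of 2.48 (0.21 to 4.55), below the 5.75 of the whole class. Among resident macrophages with Xist the levels were 12.0 CPM for WT (6 UMIs) and 33.1 CPM for KO (9.02 to 84.8, 4 UMIs), a log2 ratio of 1.47 (-0.80 to 3.54) whose interval spans 0.

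Cxcr4, the receptor for CXCL12, had most of its UMIs in macrophages (46.5% in WT, 50.2% in KO) and monocytes (22.6% and 30.1%), although WT endothelial cells reached 70.5 CPM. It was at 78.6 CPM in WT macrophages (67.2 to 91.3, 171 UMIs) and 62.0 CPM in KO macrophages (50.7 to 75.0, 105 UMIs), a log2 ratio of -0.34 (-0.71 to 0.02). Monocytes, gated on genes such as Ly6c2 and Chil3, had 157 CPM (125 to 195, 83 UMIs) in the WT library and 191 CPM (147 to 244, 63 UMIs) in the KO library, a ratio of 0.28 (-0.21 to 0.77), which was -0.12 when the classes came from clustering. Both intervals span 0. Monocytes were above macrophages in CPM in both libraries. The share of cells with a UMI was 17.6% of monocytes and 17.4% of macrophages in WT. In KO it was 18.7% (14.3 to 23.7) and 13.3% (10.8 to 16.1), with intervals that overlap. Monocytes were also shallower, at a WT median of 1124 UMIs against 2402 in macrophages. Resident macrophages had 53.0 CPM (36.0 to 75.3) in WT hosts and 33.5 CPM (22.5 to 48.2) in KO hosts, and the other macrophages had 87.9 CPM (74.0 to 104) and 91.5 CPM (72.1 to 115). The 2 kinds of macrophage did not overlap in KO and overlapped slightly in WT. In T and NK cells, 8 UMIs were found in 49 WT cells and 0 in 15 KO cells, which allows up to 216 CPM at 3 UMIs, beside 186 CPM in WT. Melanoma cells had 20 UMIs in WT and 8 in KO, a log2 ratio of -1.29 (-2.68 to -0.04) at 0.995 and 0.407 CPM.

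Genes of the same pathways were read in fibroblasts from 4 lists, beside 5.1% of all genes at least 2-fold higher in KO and 5.94% at least 2-fold lower. Of 26 signalling partners of CXCL12 and CXCL13, 15 had at least 20 UMIs, 1 of which was at least 2-fold higher in KO and 1 at least 2-fold lower, with a median log2 ratio of 0.29 beside -0.03 over all genes. The first was Sdc4, a cell-surface heparan sulphate proteoglycan that binds chemokines, at 149 CPM (WT) and 301 CPM (KO, log2 1.02, 0.69 to 1.35). The other was Gpc1, a heparan sulphate proteoglycan with a lipid anchor, at 42.3 and 19.5 CPM (log2 -1.12, -2.04 to -0.23). Of the 21 genes of lymphoid stroma and the marrow niche, 9 had 20 UMIs, with 1 higher and 1 lower and a median of 0.24. Both lists had a single gene in each direction, and nothing particular to them is read from these counts. Pdpn, a surface glycoprotein of lymph node reticular cells, was at 157 and 461 CPM (log2 1.55, 1.25 to 1.86), and Icam1, a leukocyte adhesion molecule, was at 57.3 and 28.2 CPM (log2 -1.02, -1.79 to -0.28). In fibroblasts with Xist the ratios were 1.16 for Sdc4, 1.45 for Pdpn, -1.54 for Gpc1 and -0.65 for Icam1, the last 2 with intervals that span 0.

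Among 29 other chemokines, 13 had at least 20 UMIs in fibroblasts, 4 were at least 2-fold higher in KO and 1 lower, with a median of 0.06, beside the same 5.1% and 5.94% of all genes. Cxcl5, a neutrophil attractant, had 60 CPM (WT) and 808 CPM (KO, log2 3.75, 3.31 to 4.23). Cxcl2, another neutrophil attractant, was at 203 and 423 CPM (log2 1.06, 0.78 to 1.34). Ccl5, a T cell and monocyte attractant, had 1 UMI in WT and 27 in KO (log2 4.42, 1.82 to 9.78). Cxcl9, an interferon-gamma-induced T cell attractant, was at 91.4 and 23.8 CPM (log2 -1.94, -2.70 to -1.22). The remaining higher gene, Cxcl3, had an interval that spans 0. In fibroblasts with Xist the ratio was 1.22 for Cxcl5, 0.77 for Cxcl2 and -3.39 for Cxcl9, while Ccl5 had too few UMIs in that set for a ratio. None of the 21 other chemokine receptors, Cxcr5 included, reached 20 UMIs in fibroblasts.

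The genes with the pattern most like each chemokine were found by Pearson correlation of log2(CPM + 1) over 20 profiles (5 fibroblast subtypes and 5 other cell classes in each of the 2 libraries), among 4359 genes with at least 50 fibroblast UMIs. The profiles share libraries and depth, and the correlations are a description. Nearest to Cxcl12 were Plpp3 (r = 0.97), Osmr (0.97), Steap4 (0.97), Cavin3 (0.96) and Adamts2 (0.96). For Cxcl14 they were Svep1 (0.97), Lama2 (0.96), Fibin (0.96), Srpx (0.95) and Sfrp2 (0.95). Cxcl13 had looser neighbours, Saa3 (0.80), Chl1 (0.80), Cd164 (0.78), Cp (0.78) and Sbsn (0.77).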

How the data were processed

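Single-cell RNA was measured by droplet 3' sequencing in 1 library per host genotype, each of 2 pooled tumours. The authors deposited raw UMI counts per gene and barcode, made with Cell Ranger 3.1.0 on GRCm38 with an Ensembl annotation; the submitters' processing notes also name Seurat 3.2.1. Labels and methods name different versions of the kit, so none is given here. All 5 genes and the 4 pathway lists were chosen with earlier results of these data known.

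Cells with 200 to 5000 genes and at most 7.5% mitochondrial counts were kept. A cell entered a class when 3 panel genes (2 for lymphoid, dendritic, neutrophil, keratinocyte and mast cells) were present and the panel reached 50 counts per 10000 in melanoma cells, fibroblasts and myeloid cells, 10 in endothelial cells, 20 in neutrophils and 8 otherwise. Myeloid cells were macrophages with 30 macrophage-panel counts per 10000, and otherwise monocytes with 8 monocyte-panel counts. Cells in 2 unrelated gates were left out, and no other doublets were removed; Scrublet called 2.95% of WT and 1.38% of KO cells. Fibroblasts took the subtype with the highest panel z score, if at least 0.5 with 2 genes. These limits were set from the panels after the files were seen. The resident macrophage panel (15 counts per 10000) and the KO Y-linked set against WT were added after seeing the data.

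Counts were summed per class and divided by the class total (CPM). Sums have exact Poisson, shares exact Clopper-Pearson and ratios exact conditional binomial intervals at 95%, for counting error only. Shares were also taken with each cell thinned to 2000 UMIs, leaving out shallower cells. Background genes had at least 20 UMIs in both libraries together, with counts under 3 set to 3. Named were the 5 genes in classes with at least 20 cells per library, the 5 genes nearest in pattern to each chemokine, and list members past 2-fold with an interval off 0. Rows that share a symbol were summed. Alternatives were a 15% mitochondrial limit, no upper gene limit, Scrublet removal, mixed cells kept, limits doubled, TMM (edgeR 4.0.16 in R 4.3.3) and median-of-ratios scaling, totals without mitochondrial and ribosomal protein genes, free RNA subtraction, clustering (scanpy 1.11.5), cells with Xist only and the top cell left out. The ratio step was tested on simulated counts. Python 3.11.15, numpy 2.4.6, scipy 1.17.1 and pandas 2.3.3 were used. Gene positions are from GENCODE on GRCm38 and promoters from RefSeq (GRCm38.p6), matched by symbol for all 5 genes.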

Additional observations from a re-analysis of the deposited data

Results flagged for a closer look

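In fibroblasts, Cxcl13 and Cxcl14 moved in opposite directions in the KO sex sets when each was compared with WT cells with Xist, and the difference between the sets was not tested. Cxcl13 had a log2 ratio of 3.90 in KO cells with Xist and -2.70 in KO cells with Y-linked UMIs. Cxcl14 had 0.86 and -4.12. Both sets come from 1 library, and sex and mouse cannot be told apart.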

How the results depend on the processing

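No paired analysis was possible because there was only 1 library of each genotype. Of the values that answer a comparison, 73 alternative values stayed within the counting interval of the reported value (for shares of all genes, within 1.5 times it), 5 moved beyond it and 3 reversed. All but 1 of these 8 came from the split by Xist and Y-linked UMIs. In cells with Xist, the log2 ratio moved to 1.09 for Cxcl12, 3.90 for Cxcl13 and 0.56 for Ackr3 in fibroblasts and reversed to 0.86 for Cxcl14. An alternative chosen after seeing the data set KO cells with Y-linked UMIs against WT cells with Xist. There the log2 ratio reversed to -2.70 for Cxcl13 and moved to -4.12 for Cxcl14. For Cxcl12 it was -0.015, counted as reversed by its sign alone, with an interval that spans 0. A minimum of 50 UMIs brought the genes at least 2-fold higher in KO fibroblasts to 3.37%. The sign of Cxcr4 in monocytes, whose interval spans 0, changed with classes from clustering, to -0.12. Cxcl13 in macrophages moved to 2.48 with Xist cells only. The free RNA estimate in fibroblasts was 5.28% in WT and 7.71% in KO, and Scrublet called 2 WT and 1 KO fibroblasts. Depth limits Cxcr4 and Ackr3 in endothelial cells, both with intervals that span 0, and the vascular subtype.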
